A study of Homo sapiens with 4 samples.

Results

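The constitutive centromere network is the set of inner kinetochore proteins that sit on centromeric chromatin through the whole cell cycle. Transcripts of 10 of its subunits, CENPH, CENPI, CENPK, CENPM, CENPL, CENPN, CENPU, CENPT, CENPW and CENPX, were taken by gene symbol, and all 10 were found among the 58870 genes listed for each library. RNA came from BJ cells, an established line of human foreskin fibroblasts, in 2 libraries of cells given 250 nM of a compound the labels abbreviate as Dox and 2 libraries of cells given DMSO. Per the series design, cells of both groups had 24 hours with Dox or DMSO and then 10 days to become senescent, while the treatment protocol can be read with these steps in the reverse order. The titles call the Dox samples aged and the DMSO samples young controls, and the series title concerns centromere inactivation with age. All 4 libraries are of a single cell line, and the labels do not say whether replicates were separate cultures, so p-values reflect the scatter among these libraries alone, which may be technical.

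Centromeres are marked by nucleosomes that carry the histone H3 variant CENP-A, and the network reads this mark and carries the microtubule-binding outer kinetochore. Its subunits form a few subcomplexes: CENP-H, CENP-I, CENP-K and CENP-M form one, CENP-L and CENP-N another, CENP-U belongs to the CENP-O group, and CENP-T and CENP-W form a histone-fold pair that can join a second such pair, CENP-S and CENP-X. CENP-N contacts the CENP-A nucleosome, CENP-C is a scaffold that binds both the nucleosome and the outer kinetochore, and CENP-T recruits the NDC80 complex. Transcripts of several centromere genes are known to be highest in dividing cells.

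Of the 10 subunit genes, 4 fell in Dox cells (CENPM, CENPU, CENPH and CENPK), 1 rose (CENPT) and 5 did not pass the test (CENPW, CENPI, CENPN, CENPL and CENPX). CENPM stood at 37.3% of its DMSO level in the fitted values, CENPU at 51.0%, CENPH at 53.0% and CENPK at 65.0%, while CENPT stood at 135% of its DMSO level. Genes were tested by quasi-likelihood in edgeR, with p-values adjusted by Benjamini and Hochberg's method over all 16749 genes tested, of which 13.8% were called lower and 16.5% higher at an adjusted p under 0.05. In numbers, 2309 genes were lower and 2764 higher, against 198 lower and 596 higher with limma on log2(TPM + 1), and 198 and 637 on log2(TPM + 0.1). All 10 subunits passed the filter on low counts, and the median of their log2 fold changes was -0.51, against -0.00 for all tested genes. In 6 of the 10, both Dox libraries lay below both DMSO libraries, an arrangement found in 34.5% of all tested genes, and in 1 of the 10 both lay above, found in 34.6%. Bulk RNA cannot tell fewer dividing cells apart from less transcript per cell.

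**Figure D1:**
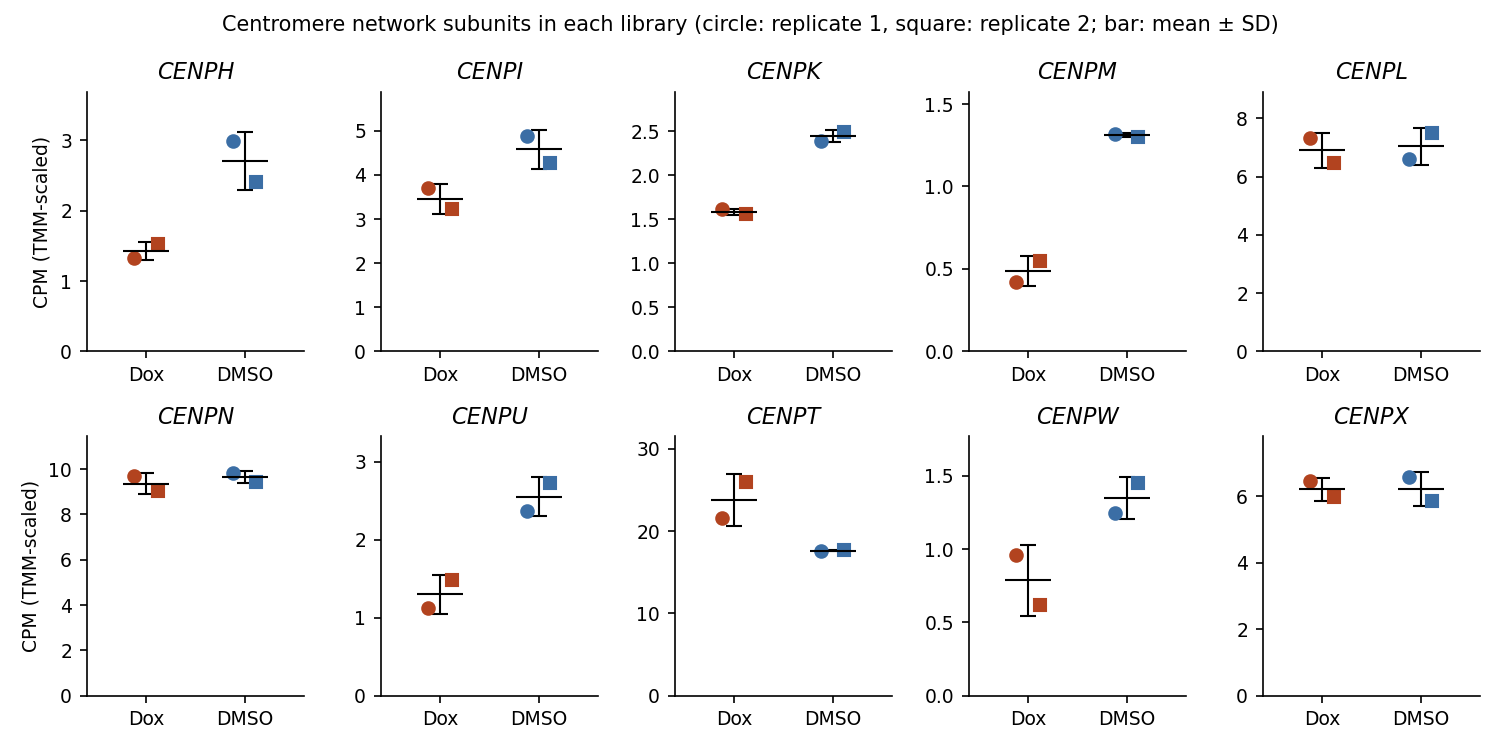
Levels in CPM after TMM scaling (vertical axes, each starting at 0) of the 10 subunit genes in the 2 Dox libraries (red, left) and the 2 DMSO libraries (blue, right), with mean and SD. The Dox points of CENPH, CENPI, CENPK, CENPM, CENPU and CENPW all lie below the DMSO points, those of CENPT lie above, and those of CENPL, CENPN and CENPX overlap with DMSO.

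The libraries held 42880682 and 43429426 expected counts (Dox) and 42744729 and 47798920 (DMSO). The Dox libraries differed from each other more than the DMSO libraries did, with a chi-square per degree of freedom of 60.5 for the Dox pair and 2.4 for the DMSO pair, and the log2 ratio of the Dox pair rose with GC content over genes, which are not independent replicates (Spearman's rho 0.598). Deposited TPM values, a read abundance scaled by transcript length and library total, were 1.63 times higher at the median gene in Dox replicate 2 than in Dox replicate 1, so groups are compared in CPM, counts relative to the library total, scaled by TMM, a trimmed mean of log ratios, and TPM is kept for levels of different genes within a library. Of the senescence-associated genes, MMP3, CXCL8, IL6 and CDKN1A rose, with log2 fold changes of 3.96, 3.90, 1.90 and 0.98, and LMNB1 fell by 2.06. All 7 fibroblast markers were measured, from 4.48 TPM for PDGFRA to 1192.84 TPM for COL1A2, while summed melanocyte markers reached at most 0.10 TPM and endothelial ones 0.07 TPM, and CD3E, KRT1 and KRT5 were listed at 0 in every library. The 4 leukocyte markers summed to 4.12 and 7.31 TPM in the Dox libraries and 1.17 and 1.16 TPM in the DMSO libraries, most of it from CD68, a lysosomal protein also made by other cells. PTPRC, the pan-leukocyte antigen, rose too, at 0.14 and 0.21 TPM in the Dox libraries and 0.01 and 0.02 TPM in the DMSO libraries, and CD14 did not pass. Of the 5 keratinocyte markers, KRT10 alone exceeded 1 TPM, and the list summed to 6.88 and 8.77 TPM in the Dox libraries and 5.57 and 5.57 TPM in the DMSO libraries. The part of other cells in the subunit results was not tested.

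CENPM, a small subunit with a fold like that of small GTPases, had 18 and 25 counts in the Dox libraries and 55 and 61 in the DMSO libraries. Both Dox values lay below both DMSO values, and the DMSO libraries were close to each other at 1.32 and 1.30 CPM. It had the largest fall among the 10 (log2 fold change -1.42, SE 0.25, edgeR adjusted p = 0.00868), at percentile 1.88 of the log2 fold changes of all tested genes. CENPM was the 1 subunit that passed a test against a fold of 1.5 (edgeR's glmTreat, adjusted p = 0.0493). It did not pass with limma on log2(TPM + 0.1) (adjusted p = 0.182). With limma on TMM-scaled log2(TPM + 0.1), added after seeing the data, it passed (adjusted p = 0.0150). Its log2 fold change lay between -1.63 and -1.26 whichever library was left out.

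CENPH, which pairs with CENP-K, had 57 and 69 counts in the Dox libraries and 125 and 113 in the DMSO libraries, with no overlap. Its level was 1.43 ± 0.133 CPM in Dox cells and 2.70 ± 0.414 CPM in DMSO cells (SD, n = 2 each), a log2 fold change of -0.92 with an SE of 0.20 (edgeR adjusted p = 0.0173). CENPK had 69 and 71 counts in the Dox libraries and 100 and 117 in the DMSO libraries. The Dox pair was again below the DMSO pair, at 1.59 ± 0.0341 CPM in Dox cells and 2.45 ± 0.0703 CPM in DMSO cells (SD, n = 2 each), a log2 fold change of -0.62 with an SE of 0.17 (edgeR adjusted p = 0.0362). CENPI, the fourth gene of this subcomplex, had 158 and 146 counts in the Dox libraries and 204 and 200 in the DMSO libraries. Its groups did not overlap, yet it did not pass (log2 fold change -0.40, SE 0.16, edgeR adjusted p = 0.101). The median over the 4 genes was -0.77, and 3 of the 4 fell. The log2 fold change of CENPH was -0.77 without DMSO replicate 1 and -1.07 without DMSO replicate 2. CENPH lost its call with limma on log2(TPM + 0.1) (adjusted p = 0.686). With limma on TMM-scaled log2(TPM + 0.1) CENPH kept the call (adjusted p = 0.0416). When DMSO replicate 1 or 2 was left out, CENPK had -0.66 and -0.60. CENPK lost its call with DESeq2's Wald test (adjusted p = 0.191) and with limma on TMM-scaled log2(TPM + 0.1) (adjusted p = 0.0968).

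CENPU, which binds the mitotic kinase PLK1, had 48 and 67 counts in the Dox libraries and 99 and 128 in the DMSO libraries. These groups did not overlap, and the level was 1.30 ± 0.251 CPM in Dox cells and 2.55 ± 0.253 CPM in DMSO cells (SD, n = 2 each), a log2 fold change of -0.97 with an SE of 0.21 (edgeR adjusted p = 0.0171). CENPU lay at percentile 4.14 of all tested genes, while CENPO (-0.02, SE 0.12), CENPP (-0.04, SE 0.21), ITGB3BP, which encodes CENP-R (-0.22, SE 0.16), and CENPQ (-0.53, SE 0.19) did not pass. CENPQ came closest, with 136 and 105 counts in the Dox libraries and 168 and 184 in the DMSO libraries (edgeR adjusted p = 0.08). Without DMSO replicate 2 the log2 fold change of CENPU was -0.87, and without DMSO replicate 1 it was -1.08. CENPU missed the threshold with limma on log2(TPM + 0.1) (adjusted p = 0.496). With limma on TMM-scaled log2(TPM + 0.1) CENPU passed (adjusted p = 0.0396).

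CENPT, the subunit that recruits the outer kinetochore's NDC80 complex, was the 1 subunit that rose. It had 922 and 1181 counts in the Dox libraries and 734 and 828 in the DMSO libraries. Both Dox values were above both DMSO values, at 21.6 and 26.0 CPM in Dox cells and 17.6 and 17.7 CPM in DMSO cells, and the Dox replicates were further apart than the DMSO replicates. The log2 fold change was 0.43 (SE 0.11, edgeR adjusted p = 0.0302), at percentile 79.9 of all tested genes, and leaving out Dox replicate 2 gave 0.29, leaving out Dox replicate 1 gave 0.55. Leaving out DMSO replicate 1 gave 0.42 and leaving out DMSO replicate 2 gave 0.43. The call was lost with limma on log2(TPM + 1) (adjusted p = 0.812). It was kept with limma on TMM-scaled log2(TPM + 0.1) (adjusted p = 0.0233).

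CENPW, the histone-fold partner of CENP-T, had 41 and 28 counts in the Dox libraries and 52 and 68 in the DMSO libraries. Both Dox values were lower, but the Dox replicates stood apart at 0.959 and 0.617 CPM, and the gene did not pass (log2 fold change -0.78, SE 0.28, edgeR adjusted p = 0.0784). Left without Dox replicate 1, the log2 fold change of CENPW was -1.14, and left without Dox replicate 2 it was -0.50. A fit that keeps 1 Dox library takes its scatter from the DMSO pair alone. Likewise, a fit that keeps 1 DMSO library takes its scatter from the Dox pair alone, so no p-value is given for either. CENPX, which with CENP-S also serves the DNA repair translocase FANCM, had 276 and 271 counts in the Dox libraries and 275 and 275 in the DMSO libraries. Its groups overlapped, and the 95% interval of its log2 fold change of -0.00 ran from -0.32 to 0.31. CENPS had a log2 fold change of 0.01 (SE 0.17), a value made uncertain by exons shared with the readthrough gene CENPS-CORT. FANCM itself had 431 and 392 counts in the Dox libraries and 241 and 292 in the DMSO libraries, a rise (log2 fold change 0.64, SE 0.13, edgeR adjusted p = 0.0131), and FAAP24 (-0.15) and FAAP100 (-0.41) did not pass.

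CENPN, which recognises the CENP-A nucleosome, had 414 and 409 counts in the Dox libraries and 410 and 443 in the DMSO libraries. CENPL, its partner, had 313 and 294 counts in the Dox libraries and 275 and 351 in the DMSO libraries. In both genes the groups overlapped. The 95% interval of the log2 fold change was -0.29 to 0.20 for CENPN and -0.35 to 0.29 for CENPL. That of CENPK, -1.03 to -0.21, overlaps both. Those of CENPH (-1.40 to -0.44), CENPU (-1.48 to -0.46) and CENPM (-2.03 to -0.81) overlap neither. Differences between these genes were not tested. CENPC, the scaffold of the network, likewise overlapped, with 848 and 800 counts in the Dox libraries and 834 and 890 in the DMSO libraries (log2 fold change -0.06, SE 0.10). Medians by subcomplex were -0.77 for CENP-H/I/K/M, -0.22 for CENP-O/P/Q/U/R, -0.04 for CENP-L/N and 0.00 for CENP-T/W/S/X.

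**Figure D2:**
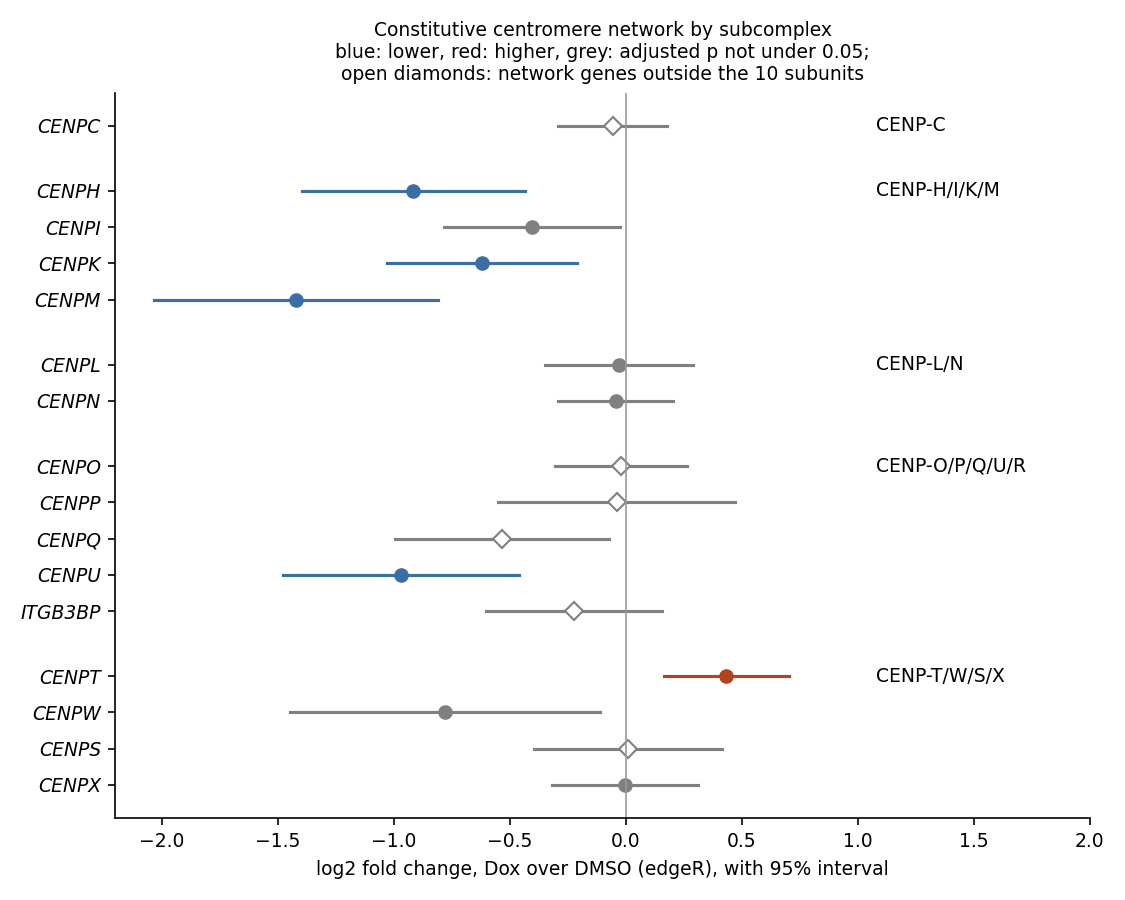
Fitted log2 fold changes (Dox over DMSO, horizontal axis) with 95% intervals for the 16 genes of the network, arranged by subcomplex. Blue points were lower (CENPH, CENPK, CENPM, CENPU), the red point CENPT was higher, and the intervals of CENPC, CENPL, CENPN, CENPO, CENPP, ITGB3BP, CENPS and CENPX span 0. Those of CENPI, CENPW and CENPQ lie below 0, yet these genes are grey, since intervals are per gene and unadjusted while colours follow the adjusted p.

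Within a library, the ratio of a pair of genes does not depend on how libraries are scaled, but it is not free of trends with GC content. CENPT had 22.5 and 42.2 times the counts of CENPW in the Dox libraries, against 14.1 and 12.2 times in the DMSO libraries. For CENPN over CENPM the ratio was 23.0 and 16.4 in the Dox libraries, against 7.45 and 7.26 in the DMSO libraries. CENPO over CENPU gave 6.50 and 5.55 in the Dox libraries, against 3.23 and 2.95 in the DMSO libraries, and CENPC over CENPH gave 14.9 and 11.6, against 6.67 and 7.88. In these 4 pairs both Dox ratios lay above both DMSO ratios, and the pairs were picked with the fold changes known. GC content was 59.0% for CENPT and 42.3% for CENPW, and 46.2% for CENPN and 59.9% for CENPM. It was 52.8% for CENPO and 39.0% for CENPU, and 37.5% for CENPC and 40.7% for CENPH. The part of the GC trend of the Dox pair in these ratios was not tested. The partners CENPN and CENPL kept overlapping ratios, 1.32 and 1.39 in the Dox libraries and 1.49 and 1.26 in the DMSO libraries, as did CENPX over CENPS, 1.89 and 1.81 in the Dox libraries and 2.22 and 1.59 in the DMSO libraries. Counts summed over the 10 genes came to 54.0 and 59.0 CPM, here without TMM scaling, in the Dox libraries and 54.5 and 54.1 CPM in the DMSO libraries. CENPT gave 39.8% and 46.1% of that sum in the Dox libraries and 31.5% and 32.0% in the DMSO libraries. The library totals used for this CPM include 7SL and 7SK genes. These made up 17.2% and 14.8% of counts in the Dox libraries and 20.2% and 20.1% in the DMSO libraries.

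Levels per length, in TPM within a library, put CENPT, CENPX, CENPN and CENPL in the upper 4 places in all 4 libraries. The order was CENPT (3.62 and 6.41 TPM), CENPX (2.87 and 4.17), CENPN (1.72 and 2.27) and CENPL (1.02 and 1.37) in Dox replicates 1 and 2. In the DMSO libraries CENPX (3.24 and 3.00 TPM) and CENPT (3.05 and 3.21) changed places between replicates, so their order did not exceed the spread, and CENPN (2.09 and 2.19) and CENPL (1.04 and 1.17) followed. The other 6 subunits lay between 0.15 and 0.65 TPM in the Dox libraries and between 0.41 and 0.79 TPM in the DMSO libraries. Among these 6, CENPM and CENPU held the lowest 2 places in each library, CENPM level with CENPI at 0.50 TPM in DMSO replicate 1, and CENPH, CENPI, CENPK and CENPW changed places between replicates. The 4 subunits that fell were thus among the 6 of lower level. Of all tested genes with a mean under 1 CPM, where CENPM lies, 3.95% were called lower. Of those with a mean between 1 and 5 CPM, where CENPH, CENPI, CENPK, CENPU and CENPW lie, 13.6% were called lower, and between 5 and 30 CPM, where CENPL, CENPN, CENPT and CENPX lie, 17.2% were. In the same order of levels, 15.3%, 14.8% and 13.7% of genes were called higher.

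RefSeq promoter windows (GRCh38.p14, 250 bases before to 50 bases after the annotated start) were matched for 7 of the 10 genes, CENPH, CENPL and CENPM having no entry. The windows of CENPK and CENPU, which fell, CENPT, which rose, and CENPX, whose groups overlapped, are shown to set their motif content side by side. Capitals mark matches, on either strand, to the CCAAT box (CCAAT) or to an E2F site (TTTCCCGC, TTTCGCGC, TTTGCCGC or TTTGGCGC), motifs known from promoters of cell cycle genes.
CENPK (chr5:65563119-65563418, minus strand): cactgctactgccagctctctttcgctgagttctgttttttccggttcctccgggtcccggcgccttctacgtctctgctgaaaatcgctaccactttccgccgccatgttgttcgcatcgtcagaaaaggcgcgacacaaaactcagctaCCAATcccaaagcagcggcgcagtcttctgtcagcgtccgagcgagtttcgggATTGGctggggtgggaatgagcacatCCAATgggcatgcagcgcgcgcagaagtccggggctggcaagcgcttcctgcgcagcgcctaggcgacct
CENPU (chr4:184734047-184734346, minus strand): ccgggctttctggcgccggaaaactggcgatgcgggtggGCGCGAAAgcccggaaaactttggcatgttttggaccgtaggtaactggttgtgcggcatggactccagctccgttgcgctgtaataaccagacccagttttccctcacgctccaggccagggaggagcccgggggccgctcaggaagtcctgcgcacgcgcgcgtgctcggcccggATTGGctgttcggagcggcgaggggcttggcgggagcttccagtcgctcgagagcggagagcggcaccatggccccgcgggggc
CENPT (chr16:67847644-67847943, minus strand): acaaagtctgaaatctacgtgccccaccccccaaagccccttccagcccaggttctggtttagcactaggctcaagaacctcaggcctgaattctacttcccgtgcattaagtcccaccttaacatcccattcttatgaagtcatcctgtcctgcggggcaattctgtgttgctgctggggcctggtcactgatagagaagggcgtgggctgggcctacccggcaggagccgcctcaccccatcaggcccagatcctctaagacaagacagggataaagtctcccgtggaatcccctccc
CENPX (chr17:82022829-82023128, minus strand): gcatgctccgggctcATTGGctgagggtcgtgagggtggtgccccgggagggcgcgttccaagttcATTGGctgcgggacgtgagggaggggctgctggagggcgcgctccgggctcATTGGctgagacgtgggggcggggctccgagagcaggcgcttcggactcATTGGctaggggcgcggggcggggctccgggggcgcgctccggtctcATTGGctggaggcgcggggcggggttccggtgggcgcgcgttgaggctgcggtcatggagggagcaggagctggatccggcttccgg
CENPK holds 3 CCAAT matches and CENPU 1 together with an E2F match, CENPX holds 5 CCAAT matches, and CENPT holds none of these motifs. A CCAAT match was found in 5 of the 7 windows (also CENPN and CENPW), against 35.7% of 27305 promoters, and an E2F match in 1 of the 7, against 3.33%. The CHR element (TTTGAA or TTCGAA), a further cell cycle motif, was found in CENPN and CENPW, 2 of the 7, against 16.6% of all promoters. The CENPI window held none of the motifs. No matches overlapped each other in these 7 windows. The RefSeq start used for a window lies inside the GENCODE 29 gene by 2840 bases for CENPI, 1229 for CENPX and 716 for CENPN, so for these genes the window is not that of the outermost start in GENCODE, and for CENPK, CENPU, CENPT and CENPW the starts lie 3, 37, 118 and -59 bases inside, the negative value being upstream. CCAAT matches thus occur in genes that fell and in genes whose groups overlapped, and a match is a description of letters, not of a bound site.

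Several subunit genes share their start region or exon bases with a gene on the other strand, and the sources used here do not give the strand setting of the counting, so reads in shared exons cannot be assigned with certainty. CENPK starts 65 bases from PPWD1, which runs the other way and had a log2 fold change of -0.06 (SE 0.10) without passing. CENPH starts 96 bases from AC022107.1 (-0.02), which did not pass either. CENPL lies on chromosome 1, 173799550 to 173824720. CENPT (chromosome 16, 67828157 to 67847811 in GRCh38) shares exon bases with THAP11, which fell by 0.75, and with NUTF2 (-0.20) and TSNAXIP1 (-0.16), which did not pass. The part of shared reads in the CENPT value was not tested. CENPU (chromosome 4, 184694618 to 184734133) shares exon bases with PRIMPOL, a primase-polymerase that fell by 0.47, CENPN (chromosome 16, 81006498 to 81033114) with CMC2, which fell by 0.44, and CENPX (chromosome 17, 82018702 to 82024107) with LRRC45 (-0.15), which did not pass. In GENCODE 29, CENPM (chromosome 22, 41938721 to 41947164), CENPH (chromosome 5, 69189548 to 69210357), CENPI (chromosome X, 101098218 to 101163681), CENPK (chromosome 5, 65517766 to 65563171) and CENPW (chromosome 6, 126340174 to 126348875) share no exon bases with another gene.

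The centromeric nucleosome genes and the outer kinetochore were set beside the network. CENPA, the centromeric histone, had 19 and 20 counts in the Dox libraries and 43.1 and 68.2 in the DMSO libraries, and HJURP, its chaperone, had 100 and 104 in the Dox libraries and 267 and 252 in the DMSO libraries. Both fell, with log2 fold changes of -1.49 (SE 0.29) for CENPA and -1.34 (SE 0.16) for HJURP. CENPA shares exon bases with SLC35F6 on the same strand, and HJURP, RBBP7, SPC24, CENPO, CENPP and ITGB3BP share some with genes on the other strand. The values of all these genes carry the same uncertainty as those of CENPS and of the subunits with shared exons. CENP-A and its deposition are covered by 8 genes, of which 4 passed as lower, 0 as higher and 4 neither way, with a median log2 fold change of -0.47. RBBP7, a histone-binding protein, was among the 4 and fell by 0.61. In the KMN network of the outer kinetochore, 8 of 10 genes passed as lower and 0 as higher, around a median of -1.04, with NDC80 lower by a log2 fold change of -1.85 and SPC24, of the same complex, by -1.81. Among the 16 cycling cell genes, 14 passed as lower and 0 as higher, around a median of -1.24, and MKI67, a marker of dividing cells, was at 9.05 ± 1.02 CPM in Dox cells and 21.8 ± 1.54 CPM in DMSO cells (SD, n = 2 each). TOP2A, the topoisomerase of dividing cells, and CDK1, the mitotic kinase, had log2 fold changes of -1.40 and -1.86. These genes moved in the same libraries as the 4 subunits that fell, and their part in the subunit results was not tested. Among the 6 further network genes none passed in either direction by edgeR (median -0.05), where edgeR gave 1 of them (CENPQ) an unadjusted p under 0.05 and DESeq2 called 0. The same background of 13.8% lower and 16.5% higher applies to these counts.

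**Figure D3:**
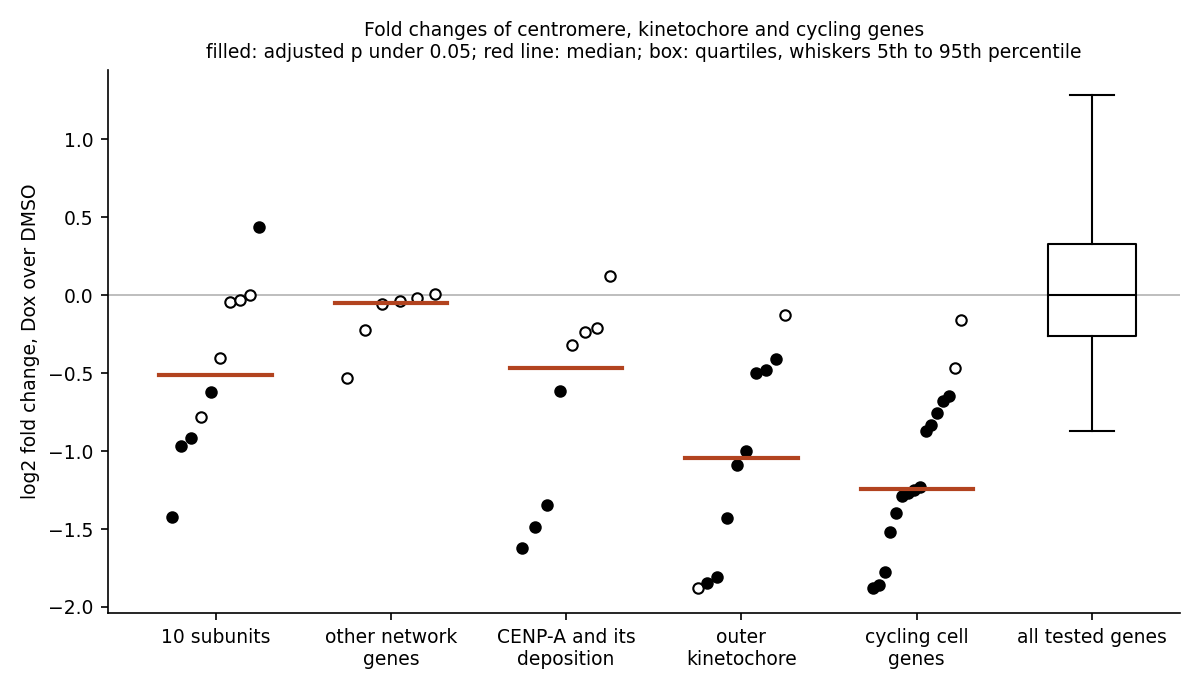
Log2 fold changes (Dox over DMSO, vertical axis) of the 10 subunits, the 6 other network genes and 3 comparison lists, 1 point a gene, beside the distribution of all 16749 tested genes. The subunits spread from -1.42 to 0.43 around a median of -0.51, while the outer kinetochore and cycling cell medians are -1.04 and -1.24.

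The calls were repeated under 16 other ways of processing the counts or leaving out a library. All of them reuse the same 4 libraries, so the tallies are not repeated support, and some come from fits with 1 library left in a group. The number of all genes called also differed, as in 198 lower and 596 higher on log2(TPM + 1) against 3875 lower and 3916 higher with GC offsets. CENPM passed in 14 of them, CENPH and CENPU in 12 each, CENPT in 11, CENPK in 9, CENPI and CENPW in 3 each, and CENPL, CENPN and CENPX in 0.

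**Figure D4:**
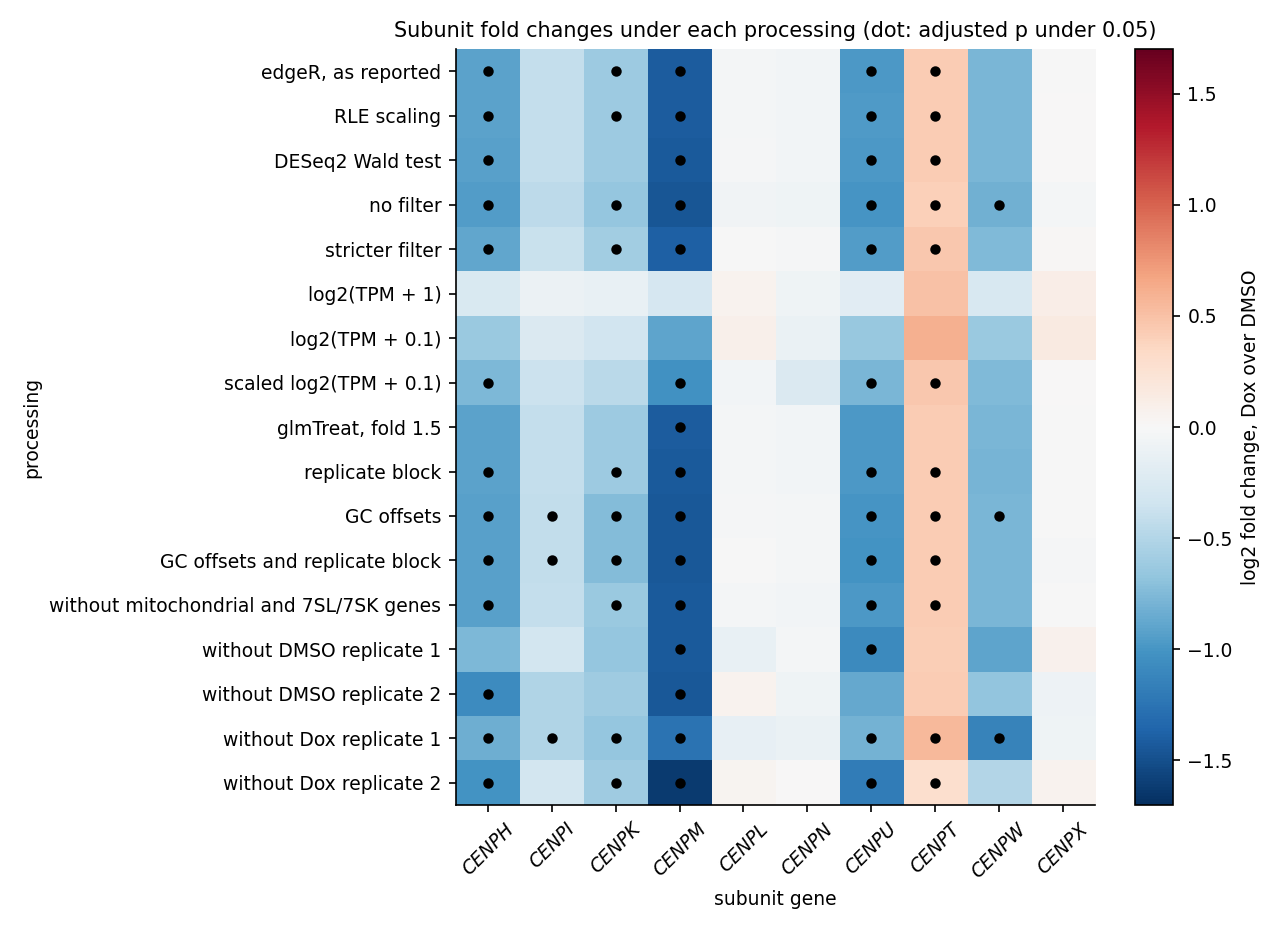
Log2 fold changes of the 10 subunits (columns, colour scale) under each processing (rows), with a dot where the adjusted p is under 0.05. CENPH, CENPI, CENPK, CENPM, CENPU and CENPW are negative and CENPT positive in every row, while dots are absent from both rows of unscaled log2(TPM + pseudocount).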

How the data were processed

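RNA-seq libraries of 2 Dox and 2 DMSO samples were grouped by their titles. The submitters' processing notes list STAR, RSEM, cutadapt and Picard as tools and hg38 as the build. Tool versions, strand setting and annotation release: not given in the sources used here. The deposited expected counts are estimated reads per gene, per the file headers, and were rounded to whole numbers. The deposited TPM values are scaled by transcript length, per the file headers. The deposited lengths in bases were read but enter no result. GENCODE 29 (GRCh38), which holds 99.5% of the Ensembl identifiers listed when version numbers are ignored, gave the coordinates. The listed version differs from it for CENPH, CENPK, CENPM, CENPU, CENPT and CENPX, and exon sharing in the gene models used for counting was not checked.

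Genes were kept by edgeR's filterByExpr (minimum count 10, minimum total 15), scaled by TMM, then fitted by glmQLFit and compared by glmQLFTest of edgeR. The model held group alone, with a Benjamini-Hochberg threshold of 0.05. Standard errors are the log2 fold change over the square root of F. The test was tested on simulated data. Alternatives were RLE scaling, DESeq2's Wald test, no filter, a filter of 50 counts in 2 libraries, limma on log2(TPM + 1) and log2(TPM + 0.1), glmTreat at a fold of 1.5, the replicate number as a block, offsets for GC trends, removal of mitochondrial, 7SL and 7SK genes, and leaving out each library. TMM-scaled TPM was added after seeing the data. The software was Python 3.11.15 and R 4.3.3 with DESeq2 1.42.0, limma 3.58.1 and edgeR 4.0.16.

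The members, lists and motifs were chosen with earlier results of these data known. Named genes were the 10 subunits, the other network genes, CENPA, HJURP, MKI67, FANCM and the 2 genes with the smallest adjusted p of each further list in its commoner direction. Any gene named beyond these was picked with its values known. Pairs for count ratios and neighbouring genes (within 1000 bases, or sharing exon bases) were chosen after the files were seen. A neighbouring gene is not reported here.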

Additional observations from a re-analysis of the deposited data

How the results depend on the processing

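Over 16 alternatives the log2 fold changes of CENPH, CENPI, CENPK, CENPM, CENPU and CENPW stayed negative and that of CENPT positive. The cause of each change below was not tested unless stated. On log2(TPM + 1) and log2(TPM + 0.1), 198 and 198 genes were lower and 596 and 637 higher, and of the subunits 0 were lower and 0 higher. The values were -0.26 and -0.63 for CENPH, -0.12 and -0.32 for CENPK, -0.29 and -0.90 for CENPM, -0.19 and -0.64 for CENPU and 0.50 and 0.61 for CENPT. The sign turned for CENPL (0.056 and 0.093), CENPX (0.12 and 0.15), CENPC (0.18 and 0.27) and CENPO (0.093 and 0.17), and medians were -0.19 and -0.48 for CENP-H/I/K/M, -0.032 and -0.16 for CENP-O/P/Q/U/R and 0.12 and 0.17 for CENP-T/W/S/X. Lower calls came to 1 and 1 for CENP-A deposition, 2 and 2 for KMN and 3 and 3 for cycling genes, and 0 and 0 of the FANCM list were higher. With TMM-scaled log2(TPM + 0.1), added after seeing the data, 1561 genes were lower and 1765 higher. Of the subunits 3 were lower and 1 higher, KMN had 5 lower and the FANCM list 0 higher. The values were then -0.46 for CENPK, 0.0020 for CENPX, 0.13 for CENPC, 0.037 for CENPO, -0.61 for CENP-H/I/K/M and -0.15 for CENP-L/N. Against a fold of 1.5, glmTreat left 480 lower and 787 higher genes, with 1 subunit lower (CENPM) and 0 higher, 1 CENP-A deposition, 5 KMN and 9 cycling genes lower and 0 of the FANCM list higher. Its fold changes are those reported (-0.92 for CENPH, -0.62 for CENPK, -0.97 for CENPU, 0.43 for CENPT). GC offsets gave 3875 lower genes, and 3835 together with the replicate block. CENPI then passed at -0.41 and -0.41 and CENPW with the offsets alone at -0.78, 1 other network gene and 1 of the FANCM list were lower in each, and CENP-O/P/Q/U/R had -0.32 and -0.32. The replicate block alone gave 2511 lower and 2972 higher genes, with 1 other network gene (CENPQ), 1 of the FANCM list and 9 KMN genes lower, and changed no other count of calls in these lists and no call of a subunit. Deviations of same-numbered samples correlated at 0.0383 over genes. With 2 libraries a group this value cannot exclude a pairing, and the reported model does not pair the samples. Without a filter CENPW passed at -0.81, CENPS had -0.025, 1 other network gene and 1 of the FANCM list were lower, and the median of all genes moved to 0.12. With the stricter filter CENPX had 0.024, CENPO 0.0051 and CENP-A deposition 2 lower genes, CENPA not being kept. DESeq2 gave -0.62 for CENPK, which did not pass, and 0.00059 for CENPX, and RLE scaling 0.00072 for CENPX. Leaving out each library in turn gave 1000 to 5017 lower and 1368 to 4654 higher genes, 2 to 6 subunits lower and 0 to 1 higher. The lists had 0 to 2 other network, 3 to 6 CENP-A deposition, 5 to 9 KMN and 0 to 1 FANCM list genes lower, and 0 to 1 CENP-A deposition and 0 to 1 FANCM list genes higher. Log2 fold changes ran from -1.07 to -0.77 for CENPH, -0.52 to -0.31 for CENPI, -0.66 to -0.60 for CENPK, -1.19 to -0.80 for CENPU, 0.29 to 0.55 for CENPT and -1.14 to -0.50 for CENPW. For genes that passed nowhere they ran from -0.14 to 0.060 for CENPL, -0.11 to 0.0063 for CENPN, -0.091 to 0.072 for CENPX, -0.16 to 0.025 for CENPC, -0.11 to 0.046 for CENPO, -0.19 to 0.10 for CENPP and -0.15 to 0.17 for CENPS. Medians ran from -0.84 to -0.71 for CENP-H/I/K/M, -0.12 to 0.029 for CENP-L/N, -0.37 to -0.11 for CENP-O/P/Q/U/R and -0.049 to 0.041 for CENP-T/W/S/X. CENPH, CENPM, CENPU and CENPW rest on 18 to 128 counts a library, and CENPT on 734 to 1181.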
